A study of Mus musculus with 8 samples.

Results

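Follicular T helper (TFH) and follicular regulatory T (TFR) cells take their state from a small set of transcription factors, and the mRNA levels of 10 such genes are described here in 4 CD4 T cell populations of the mouse. The genes are Bcl6, Prdm1, Maf, Irf4, Batf, Tox, Tox2, Ascl2, Pou2af1, and Bhlhe40. They were chosen by name, and all 10 were found among the 29924 gene names of the array and belonged to the 15764 genes that could be tested. BCL6 is the repressor required for the follicular program, and BLIMP-1, the product of Prdm1, is its antagonist and drives effector differentiation, including that of effector Treg cells. MAF, IRF4, and BATF act together with AP-1 proteins downstream of antigen receptor and cytokine signals, TOX and TOX2 are HMG-box proteins, ASCL2 and BHLHE40 belong to the basic helix-loop-helix family, and POU2AF1 is a coactivator of octamer-binding proteins known best from B cells.

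All cells came from peripheral lymph nodes (pLN) of B6.Cg-Foxp3<tm1Mal> mice of mixed sex, 8 to 14 weeks old, in which Foxp3-expressing cells carry EGFP. Every group had received KLH with alum subcutaneously, so that non-immunized cells are not part of the comparison. Naïve CD4 T cells (Tnaive, GFP-PD1-GL7-), TFH cells (GFP-PD1hi GL7+), Treg cells (GFP+PD1-GL7-), and TFR cells (GFP+PD1hi GL7+/-), all gated as B220-CD4+, were each hybridized on 1 array at d12 and on 1 array at d25, from pools of 8 to 15 mice per the labels. The study's own text names further sorts of these populations and other pool sizes, and only these 8 arrays were analysed here. Each cell type therefore has 2 arrays without a replicate within a day, and the p values measure the spread between these arrays only. The gate for naïve cells used no marker of antigen experience other than PD1 and GL7, and the gate for TFR cells, unlike that for TFH cells, included GL7- cells. In sorted populations, a change in the number of expressing cells cannot be told apart from a change in RNA per cell.

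Levels are given as normalized intensities in relative units (RU), with d12 first and d25 second. Differences are on the log2 scale, are means over both days, and carry the standard error (SE) of a limma model of cell type and day (n = 2 arrays per cell type). P values were corrected over the 15764 genes by Benjamini-Hochberg, and a difference with an adjusted p below 0.05 is termed called. Before normalization, 46.3% to 50.4% of the probes of an array were well above background. Foxp3, which with Pdcd1 (PD1) defined the gates, was between 37266 and 49262 RU on the Treg and TFR arrays and at most 358 RU on the others, and Pdcd1 was at least 87316 RU on the TFH and TFR arrays and at most 4621 RU on the others. The T cell genes Cd4 and Cd3e were well above background on all 8 arrays. All d12 arrays shared a slide, the d25 arrays of naïve and TFH cells another, and those of Treg and TFR cells a further slide, so that day and slide cannot be told apart.

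Within the Foxp3- cells, 9 of the 10 genes were called higher in TFH cells, compared to naïve CD4 T cells, and none was called lower. In this comparison, 20.9% of the genes tested were called higher and 25.6% were called lower. The median difference of the 10 genes was 3.97 on the log2 scale, compared to -0.07 for all genes tested. Within the Foxp3+ cells, 9 of the 10 were called higher in TFR than in Treg cells and none lower, against 18.7% of all genes called higher and 20.9% lower, with a median difference of 2.10 compared to -0.08 for all genes. The exception was Prdm1 in the first comparison and Irf4 in the second. Without the adjustment, all 10 genes had p below 0.05 by limma in either comparison, including the lower value of Prdm1 in TFH cells.

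**Figure D1:**
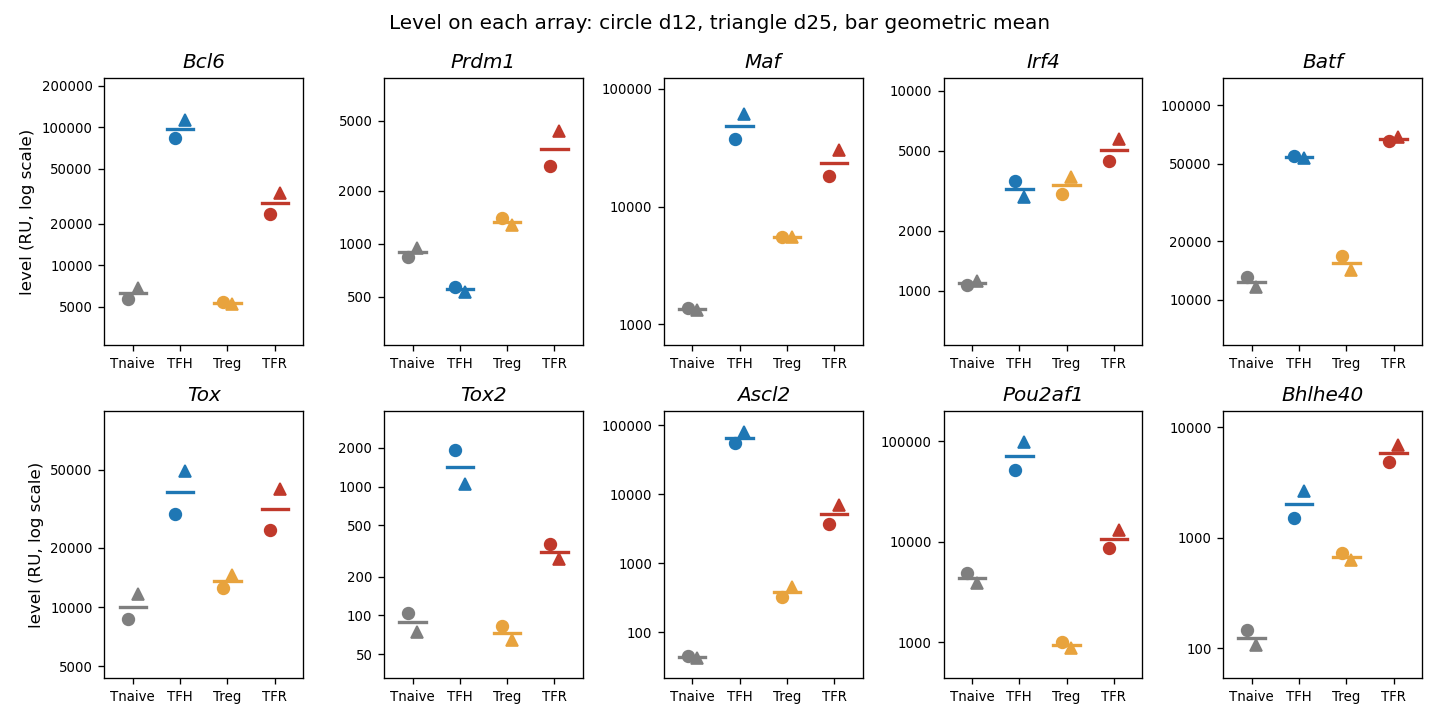
Levels of the 10 transcription factor genes on each array in RU on a log axis, with naïve (Tnaive), TFH, Treg, and TFR cells on the horizontal axis. Circles are d12, triangles d25, and bars the geometric mean of both. Prdm1 is lowest in TFH cells (572 and 531 RU), whereas the other genes are lowest in naïve or Treg cells.

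Bcl6 (probe on chromosome 16, 23965160 to 23965219, build NCBI37) was highest in TFH cells with 82998 and 112804 RU, followed by TFR cells with 23711 and 33232 RU, naïve cells with 5750 and 6877 RU, and Treg cells with 5391 and 5277 RU. The levels of TFR cells lay between those of TFH cells and those of both PD1- populations, without overlap. The difference between Treg and TFR cells was 2.40 ± 0.15 (5.26-fold, adjusted p = 0.00104). TFR cells remained 1.79 ± 0.15 below TFH cells (3.45-fold, adjusted p = 0.0029). Naïve and Treg cells, the lowest neighbours in the order, were not called different (-0.24 ± 0.15, adjusted p = 0.386).

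Prdm1 (chromosome 10, 44157089 to 44157148) showed another order. TFR cells were highest with 2767 and 4358 RU, followed by Treg cells with 1400 and 1277 RU, naïve cells with 842 and 954 RU, and TFH cells with 572 and 531 RU. No cell type overlapped with another, but Treg and naïve cells were not called different (0.58 ± 0.22, adjusted p = 0.173). TFR cells exceeded Treg cells by 1.38 ± 0.22 (2.60-fold, adjusted p = 0.0093) and TFH cells by 2.66 ± 0.22 (6.30-fold, adjusted p = 0.00263). The value of TFH cells relative to naïve cells was -0.70 ± 0.22 and missed the threshold (adjusted p = 0.0511). Bcl6 and Prdm1 were thus both called higher in TFR than in Treg cells. Compared to TFH cells, TFR cells had less Bcl6 and more Prdm1.

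Sequences upstream of transcription starts were taken from RefSeq (GRCm38.p6) for Bcl6, which has 2 listed windows, and Prdm1, because the gene products are known to repress each other. Each run covers the 250 bases before a start, 5′ to 3′ along the gene, with capitals marking matches, on either strand, to CANNTG (E-box), TGANTCA (AP-1), and TTCNNNGAA (the form shared by STAT and BCL6 sites).
Bcl6, chr16:23988853-23989102, minus strand: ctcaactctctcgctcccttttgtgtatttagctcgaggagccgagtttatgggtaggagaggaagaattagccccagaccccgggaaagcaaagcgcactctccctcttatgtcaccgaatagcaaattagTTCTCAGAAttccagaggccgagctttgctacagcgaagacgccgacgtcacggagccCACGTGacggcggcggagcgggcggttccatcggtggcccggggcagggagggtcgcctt
Bcl6, chr16:23981284-23981533, minus strand: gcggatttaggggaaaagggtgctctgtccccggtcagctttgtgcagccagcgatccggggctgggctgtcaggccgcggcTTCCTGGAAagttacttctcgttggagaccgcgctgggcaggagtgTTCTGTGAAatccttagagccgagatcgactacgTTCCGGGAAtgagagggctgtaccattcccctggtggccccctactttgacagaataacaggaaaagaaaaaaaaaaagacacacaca
Prdm1, chr10:44458749-44458998, minus strand: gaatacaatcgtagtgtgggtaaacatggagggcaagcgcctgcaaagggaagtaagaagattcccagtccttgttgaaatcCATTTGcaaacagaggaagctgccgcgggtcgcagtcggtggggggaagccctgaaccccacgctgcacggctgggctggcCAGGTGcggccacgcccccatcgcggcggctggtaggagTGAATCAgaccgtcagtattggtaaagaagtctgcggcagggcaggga
The second Bcl6 window held 3 matches to TTCNNNGAA, beginning 168, 122, and 88 bases before the start, and the first window held 1 at 118 bases. Of 32851 windows of the same length, 7.02% held at least 1 such match and 0.0274% held 3 or more. The E-box at 60 bases in the first Bcl6 window reads CACGTG, the form preferred by BHLHE40, which was found in 6.02% of all windows. The Prdm1 window held a TGANTCA match at 48 bases, a form present in 6.75% of all windows, and an E-box of the form CAGNTG at 87 bases, present in 44.8%. Neither gene had a match to GAAAGTG, the core bound by BLIMP-1, in these letters. A match is a description of the sequence and not evidence of binding.

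Maf encodes c-MAF, which is known to support IL21 and IL4 production in TFH cells and IL10 in regulatory cells. Its brighter probe (chromosome 8, 118227736 to 118227795) was lowest in naïve cells with 1378 and 1330 RU, followed by Treg cells with 5565 and 5553 RU, TFR cells with 18285 and 30105 RU, and TFH cells with 37432 and 61046 RU. All neighbours in this order were called different. Naïve and TFH cells differed by 5.14 ± 0.25 (35.3-fold, adjusted p = 0.000276), and Treg and TFR cells by 2.08 ± 0.25 (4.22-fold, adjusted p = 0.00456). Treg cells already exceeded naïve cells by 2.04 ± 0.25 (4.11-fold, adjusted p = 0.0128).

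Batf (chromosome 12, 87049872 to 87049929), an AP-1 family member needed for both Bcl6 and Maf expression in T cells, followed PD1 rather than Foxp3. Naïve cells had 13155 and 11707 RU and Treg cells 16853 and 14220 RU, whereas TFH cells reached 54635 and 53263 RU and TFR cells 65291 and 68472 RU. The PD1- and PD1hi populations were separated without overlap, and Treg and naïve cells were not called different (0.32 ± 0.11, adjusted p = 0.146). The differences were 2.12 ± 0.11 between naïve and TFH cells (adjusted p = 0.000305) and 2.11 ± 0.11 between Treg and TFR cells (adjusted p = 0.000674). TFR cells were 0.31 ± 0.11 above TFH cells, which was not called (adjusted p = 0.11, 95% interval 0.03 to 0.59).

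Irf4 (chromosome 13, 30858532 to 30858591), the partner of BATF on composite DNA elements, was lowest in naïve cells with 1069 and 1120 RU. TFH cells had 3546 and 2935 RU, Treg cells 3034 and 3727 RU, and TFR cells 4471 and 5762 RU. TFH and Treg cells overlapped and differed by -0.06 ± 0.18 (adjusted p = 0.814, 95% interval -0.52 to 0.40). TFH cells exceeded naïve cells by 1.56 ± 0.18 (2.95-fold, adjusted p = 0.00266), and Treg cells did so by 1.62 ± 0.18 (3.07-fold, adjusted p = 0.00939). The value of TFR cells relative to Treg cells was 0.59 ± 0.18 and missed the threshold (adjusted p = 0.052).

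Tox and Tox2 are close relatives that differed in this comparison. Tox, read by its brighter probe (chromosome 4, 6614755 to 6614814), had 8670 and 11646 RU in naïve cells, 12525 and 14582 RU in Treg cells, 24799 and 39933 RU in TFR cells, and 29852 and 49520 RU in TFH cells. TFH cells exceeded naïve cells by 1.94 ± 0.15 (3.83-fold, adjusted p = 0.000926), and TFR cells exceeded Treg cells by 1.22 ± 0.15 (2.33-fold, adjusted p = 0.00515). The PD1hi populations overlapped, and their difference of -0.29 ± 0.15 (TFR minus TFH) was not called (adjusted p = 0.241, 95% interval -0.69 to 0.11). Tox2, read by its brighter probe (chromosome 2, 163101725 to 163101784), had 1916 and 1042 RU in TFH cells compared to 360 and 272 RU in TFR cells, or -2.18 ± 0.15 for TFR minus TFH (4.52-fold, adjusted p = 0.00177). Naïve cells had 104 and 75 RU and Treg cells 83 and 65 RU, of which the d25 value was not well above background. Their levels exceeded the lowest signal well above background on these arrays, so that the 16.0-fold difference between naïve and TFH cells and the 4.28-fold difference between Treg and TFR cells are fitted values and not bounds (adjusted p = 0.000185 and 0.00144).

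Ascl2, whose product directs CXCR5 expression and migration toward follicles, had the widest range of the 10 genes. Its brighter probe (chromosome 7, 150152734 to 150152793) had 55426 and 79473 RU in TFH cells, 3705 and 7008 RU in TFR cells, and 328 and 454 RU in Treg cells. Naïve cells had 46 and 43 RU and were not well above background on either array. With the lowest signal well above background of these arrays in place of that level, TFH cells were at least 1137-fold, TFR cells at least 87.3-fold, and Treg cells at least 6.61-fold higher than naïve cells (adjusted p of the fits 8.32e-05, 0.000131, and 0.00388). TFR cells exceeded Treg cells by 3.72 ± 0.25 (13.2-fold, adjusted p = 0.0012) and were 3.70 ± 0.25 below TFH cells (13.0-fold, adjusted p = 0.00162). The order was thus TFH, TFR, Treg, and naïve cells, with all neighbours called different.

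The RefSeq window of Ascl2 is shown because ASCL2 itself recognizes E-boxes. Capitals mark matches to CANNTG.
Ascl2, chr7:142969265-142969514, minus strand: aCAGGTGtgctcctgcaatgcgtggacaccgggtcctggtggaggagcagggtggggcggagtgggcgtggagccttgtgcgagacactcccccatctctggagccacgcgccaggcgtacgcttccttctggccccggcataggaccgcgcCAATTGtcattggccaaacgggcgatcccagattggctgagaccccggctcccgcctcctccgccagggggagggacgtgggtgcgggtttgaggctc
It held 2 matches, beginning 249 and 98 bases before the start, of which the first has the form CAGNTG. The general form CANNTG was present in 66.2% of all windows. Over the 7 genes with a window in the table, CANNTG was found in at least 1 window of 6 genes, and GAAANNGAA (the IRF form), GAAAGTG, and ATGCAAAT (the octamer) in none of the 12 windows, of which 5 belong to Tox2 and partly overlap, with 7.13%, 4.01%, and 1.60% of all windows holding these.

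Bhlhe40 (chromosome 6, 108616309 to 108616368), known to restrain IL10 and to limit TFH cell numbers, was highest in TFR cells. So were Prdm1, Irf4, and Batf. Like Prdm1 but unlike Irf4 and Batf, Bhlhe40 was called higher in TFR than in TFH cells. TFR cells had 4841 and 6927 RU, TFH cells 1503 and 2655 RU, Treg cells 722 and 626 RU, and naïve cells 146 and 107 RU. No cell type overlapped with another, and all neighbours in the order were called different. TFR cells exceeded Treg cells by 3.11 ± 0.34 (8.61-fold, adjusted p = 0.00362) and TFH cells by 1.54 ± 0.34 (2.90-fold, adjusted p = 0.0363). Unlike Prdm1, it was also higher in TFH than in naïve cells, 16.0-fold (SE 0.34 on the log2 scale, adjusted p = 0.00113).

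Pou2af1 (chromosome 9, 51048121 to 51048180) had 51203 and 98972 RU in TFH cells, 8711 and 13014 RU in TFR cells, 4883 and 3892 RU in naïve cells, and 1010 and 871 RU in Treg cells. Again no levels overlapped, and it was the gene of the set called lower in Treg than in naïve cells (-2.22 ± 0.35, 4.65-fold, adjusted p = 0.025). TFR cells exceeded Treg cells by 3.50 ± 0.35 (11.4-fold, adjusted p = 0.00298), and TFH cells exceeded naïve cells by 4.03 ± 0.35 (16.3-fold, adjusted p = 0.00123).

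Pou2af1, Prdm1, and Irf4 are also expressed by B cells or plasma cells, and markers of both were therefore read on the same arrays. Of 11 B cell markers, 5 to 10 were well above background per array, and their summed level was 6102 to 7880 RU in naïve cells, 8308 and 17702 RU in TFH cells, 10033 to 10345 RU in Treg cells, and 7926 to 8968 RU in TFR cells. Single genes made up much of these sums, with Cd79b at 7083 and 7547 RU in Treg cells and Cd22 at 6017 RU in TFH cells at d12. Pax5 was at the floor of 20 RU on all 8 arrays. The B cell gene Ms4a1 (CD20) had 246 RU in TFH cells at d12, compared to 1142 RU in naïve cells of that day, and Cd79a had 255 compared to 687 RU. On these d12 arrays Pou2af1 was 3.39 higher in TFH cells. At d25, Ms4a1 had 2738 RU in TFH and 807 RU in naïve cells, and the difference of Pou2af1 was 4.67. Of the 8 B cell markers tested, Cd22 and Spib were called higher in TFH than in naïve cells (1.60 ± 0.13 and 1.39 ± 0.21), and none was called lower. The lower Pou2af1 of Treg cells went along with lower Spib (-1.39 ± 0.21, adjusted p = 0.0217) and lower values of Ms4a1 (301 and 441 RU) but with higher values of Cd79b (7083 and 7547 RU, compared to 3224 and 2422 RU in naïve cells). B220+ cells had been gated out of every population, and the part of B cells in the differences of Pou2af1 was not tested.

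Of the 6 plasma cell markers on the array, 3 to 5 were well above background, with a summed level of 13278 to 24448 RU in naïve, 22296 to 23683 RU in TFH, 16067 to 19596 RU in Treg, and 17908 to 21432 RU in TFR cells. Jchain, a marker of antibody-secreting cells, had 7466 and 1157 RU in naïve and 3154 and 1499 RU in TFH cells. It had 2967 and 418 RU in Treg and 893 and 656 RU in TFR cells. Compared to Treg cells, it was thus lower in TFR cells at d12 and higher at d25. Derl3 was higher in TFR than in Treg cells (1480 and 2174 compared to 356 and 301 RU), as was Prdm1. Of the 4 plasma cell markers tested, it was the 1 called between these cells, and 3 were not called. Mzb1 had 2117 and 502 RU in Treg and 1157 and 1130 RU in TFR cells (0.15 ± 0.71). The TFR minus Treg value of Tnfrsf13b was 0.13 ± 0.10. The part of plasma cells in the values of Prdm1 was not tested. Proliferation genes moved with the PD1hi populations. All 5 that could be tested of 6 were called higher in TFH than in naïve cells and in TFR than in Treg cells, against 20.9% and 18.7% of all genes tested. The summed level of these genes was 2178 and 1589 RU in naïve, 16002 and 10537 RU in TFH, 5015 and 4435 RU in Treg, and 39599 and 25775 RU in TFR cells, over all 6. Their part in the values of the 10 genes was not tested. Summed levels of myeloid markers ranged from 17716 to 30588 RU over the arrays, those of Cd8a and Cd8b1 from 2110 to 5118 RU, and those of NK cell markers from 7447 to 54482 RU, the highest being Nkg7 in TFR cells (53168 and 53612 RU).

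**Figure D2:**
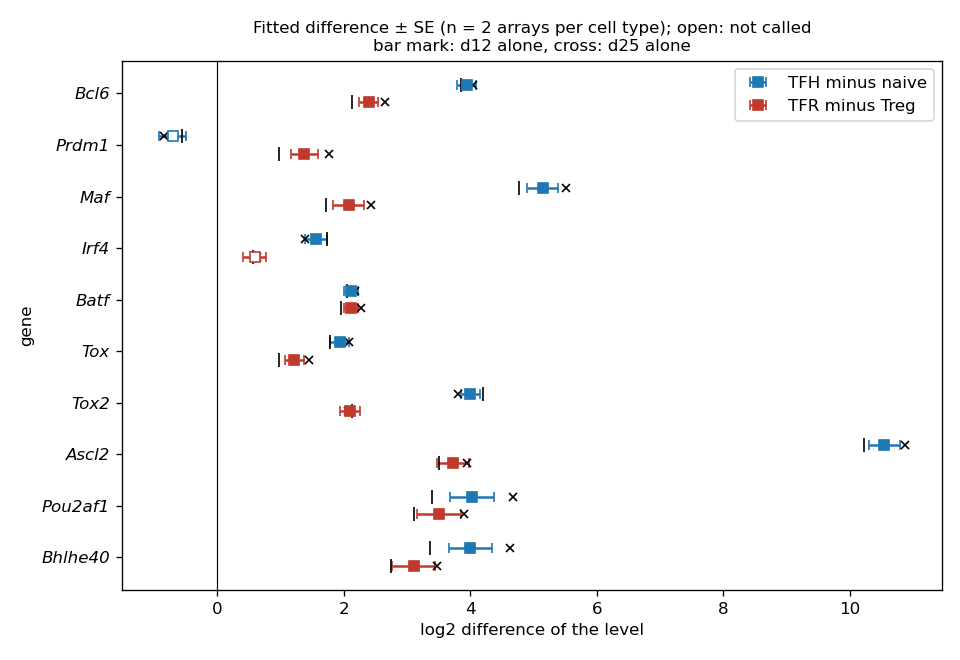
Difference on the log2 scale between TFH and naïve cells (blue) and between TFR and Treg cells (red) for the 10 genes on the vertical axis. Squares with bars are the fitted value ± SE (n = 2 arrays per cell type), filled where called; the bar mark is d12 alone and the cross d25 alone. Prdm1 in TFH cells (-0.70) is the sole value below 0, and Ascl2 in TFH cells (10.54) is the highest, a fitted value against naïve arrays that were not well above background.

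Some calls in these 2 comparisons rested on single arrays, on the processing, or on the test. Of 20 alternatives, 8 called Prdm1 between TFH and naïve cells, and 7 called Irf4 between TFR and Treg cells. The call of Prdm1 between TFR and Treg cells was lost without the d25 Treg array (1.19, adjusted p = 0.0633), that of Prdm1 between TFH and naïve cells was gained without either TFR array (adjusted p = 0.0239), and that of Irf4 between TFR and Treg cells was gained without either TFH array (adjusted p = 0.0221) and with slide as a block (adjusted p = 0.0359). By Tukey's test, which is named in the study's methods, 8 genes were called between TFH and naïve cells but 2, Bcl6 and Batf, between TFR and Treg cells. This test was run here without the day term and then adjusted over genes. Before that adjustment, 9 and 8 of the 10 genes had p below 0.05 by Tukey's test in these comparisons.

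Comparing both PD1hi populations directly, 5 of the 10 genes were called lower in TFR than in TFH cells and 2 higher. Of all genes tested, 10.5% were called lower and 11.6% higher. The lower ones were Bcl6, Maf, Tox2, Ascl2, and Pou2af1, whose differences ranged from -1.03 ± 0.25 for Maf (2.04-fold, adjusted p = 0.0456) to -3.70 ± 0.25 for Ascl2. Pou2af1 was lower by a value of -2.74 ± 0.35 (6.69-fold, adjusted p = 0.00853). The higher ones were Prdm1 and Bhlhe40. Irf4 (0.65 ± 0.18, adjusted p = 0.0604), Batf, and Tox were not called. This comparison crosses slides at d25. With slide as a block, the calls of Maf (adjusted p = 0.161), Bhlhe40 (adjusted p = 0.14), and Pou2af1 (adjusted p = 0.0566) were lost. The call of Maf was lost without any single array (adjusted p from 0.0594 to 0.242), that of Bhlhe40 without the d12 TFH array or either Treg or TFR array (adjusted p from 0.0661 to 0.195), and that of Pou2af1 without either TFR array (adjusted p 0.0575 and 0.0821), whereas that of Irf4 was gained without the d12 TFH array (0.91, adjusted p = 0.0301). Tukey's test called 0 of the 10, with 5 below 0.05 before adjustment over genes.

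Treg and naïve cells, the PD1- populations, were compared to learn which genes already differed outside the follicular state. Maf, Irf4, Ascl2, and Bhlhe40 were called higher in Treg cells and Pou2af1 lower, against 5.89% of all genes called higher and 3.98% lower. Bhlhe40 exceeded its naïve level by 2.43 ± 0.34 (5.39-fold, adjusted p = 0.0179). The remaining 5 genes had values between -0.27 for Tox2 and 0.58 for Prdm1. This comparison also crosses slides at d25, and with slide as a block the calls of Maf (adjusted p = 0.0837), Pou2af1 (adjusted p = 0.133), and Bhlhe40 (adjusted p = 0.102) were lost. Ascl2 kept its call when any single array was left out. Those of the others were lost without one or more arrays: Irf4 without either naïve or either Treg array (adjusted p from 0.0637 to 0.0832), Maf without the d25 naïve or either Treg array (0.0609 to 0.0933), Pou2af1 without any naïve, Treg, or TFR array (0.0638 to 0.158), and Bhlhe40 without the d25 naïve or any Treg or TFR array (0.0562 to 0.121). Tukey's test called 0 of the 10, with 5 below 0.05 before adjustment over genes.

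Diagonally, all 10 genes were called between TFR and naïve cells, each higher in TFR cells, where 53.1% of all genes tested were called in either direction. Between TFH and Treg cells, 8 were called higher in TFH cells and Prdm1 lower (-1.28 ± 0.22, 2.43-fold, adjusted p = 0.0102), where 39.8% of all genes were called. Irf4 was not called there. Of the 30 neighbouring pairs in the orders of the 10 genes, 20 were called different. Maf, Ascl2, Pou2af1, and Bhlhe40 were called in all 6 pairs of cell types, and Irf4 in 3. The orders were taken from the same values, and neither count was made over all genes, so both are a description.

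Whether the follicular difference was of the same size in Foxp3- and Foxp3+ cells was tested as the difference of both differences, TFR minus Treg less TFH minus naïve. It was called for 5 of the 10 genes, where 8.49% of all genes were called. For Bcl6 it was -1.55 ± 0.21 (adjusted p = 0.021), for Maf -3.06 ± 0.35 (adjusted p = 0.0138), for Tox2 -1.90 ± 0.22 (adjusted p = 0.0137), and for Ascl2 -6.82 ± 0.35 (adjusted p = 0.00344). In these genes the step was smaller in the Foxp3+ cells. As the naïve level of Ascl2 was not well above background, its fitted value is no measured size, and with the lowest signal well above background in place of that level the difference was -6.43. Prdm1 went the other way with 2.08 ± 0.31 (adjusted p = 0.0245), being higher in TFR than in Treg cells and lower, though not called, in TFH than in naïve cells. Batf had -0.01 ± 0.15 (adjusted p = 0.98, 95% interval -0.41 to 0.39). Irf4, Tox, Pou2af1, and Bhlhe40 had values between -0.97 and -0.52 that were not called.

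**Figure D3:**
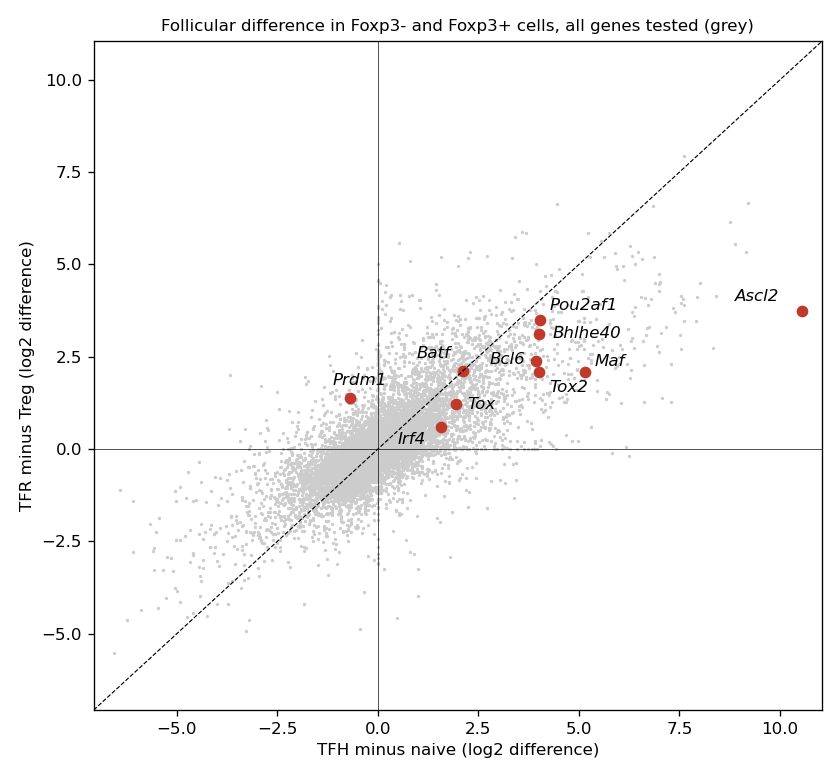
Each point is a gene, with the log2 difference between TFH and naïve cells on the horizontal and that between TFR and Treg cells on the vertical axis. Grey points are all 15764 genes tested, red points the 10 transcription factor genes, and the dashed line marks equal differences. Batf lies on the line (2.12 and 2.11), Prdm1 above it, and Ascl2 (fitted values 10.54 and 3.72) farthest below among the 10.

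With slide as a block, the calls of Bcl6 (adjusted p = 0.0564) and Prdm1 (adjusted p = 0.0601) were lost. The call of Ascl2 was kept when any single array was left out. That of Bcl6 was lost without any of 6 arrays, all but the d12 TFH and the d25 Treg array (adjusted p from 0.0594 to 0.105), that of Prdm1 without any of 7, all but the d12 TFR array (0.0538 to 0.0991), that of Tox2 without any naïve, Treg, or TFR array (0.0612 to 0.0864), and that of Maf without the d25 naïve or any Treg or TFR array (0.0511 to 0.0771), whereas Irf4 was called without the d25 TFH array (-1.22, adjusted p = 0.0451).

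Between d12 and d25, none of the 10 genes was called by limma over all cell types, and 3 had p below 0.05 before adjustment. Of all genes tested, 0.0698% were called. The largest mean differences were -0.53 ± 0.11 for Tox2 (adjusted p = 0.0817) and 0.52 ± 0.11 for Tox (adjusted p = 0.0821). Single cell types had no replicate at a given day, and their values are a description. The counts of genes higher at d25 in a cell type compare arrays of different slides. They were not made over all genes, so they cannot be read as a trait of the set. In TFR cells, 9 of the 10 genes were higher at d25, by 0.92 for Ascl2 and 0.66 for Prdm1, the exception being Tox2. In TFH cells, 6 were higher at d25, among them Pou2af1 by 0.95 and Bhlhe40 by 0.82, whereas Maf had d25 minus d12 values of -0.05 and -0.0030 in naïve and Treg cells, compared to 0.71 and 0.72 in TFH and TFR cells. Within slides, the difference between TFH and naïve cells was thus larger at d25 by 1.28 for Pou2af1 and 1.27 for Bhlhe40, and that between TFR and Treg cells by 0.79 for both Prdm1 and Pou2af1.

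A second probe was available for Maf, Tox, Tox2, and Ascl2. The first 30 bases of each probe are given as listed in the files, to show that the probes of a pair read different stretches.
Maf, brighter probe, chr8:118227736-118227795: tgggtatgtgtagttcttgctataccatgg
Maf, other probe, chr8:118207273-118207332: gaacaagccttggtttacattagaataacg
Tox, brighter probe, chr4:6614755-6614814: tccaagtcctgttatggataaagctgccaa
Tox, other probe, chr4:6613551-6613610: gagagctcaaactttactgtcttgatactg
Tox2, brighter probe, chr2:163101725-163101784: gagtaacgaagactatgagattcctcctat
Tox2, other probe, chr2:163148974-163149033: ctgtgctgaagacatctgtaagattatttt
Ascl2, brighter probe, chr7:150152734-150152793: ggccagtgtgggaaccctgctgttgcaaag
Ascl2, other probe, chr7:150176638-150176697: tgtagccactgctcatgttcctggaaacac
The coordinates are those of the whole probes in build NCBI37. The other probe of Maf was not well above background in naïve cells (23 and 44 RU), so that TFH cells were at least 27.5-fold higher (adjusted p = 0.000435), and it gave a difference of 2.80 ± 0.33 between TFR and Treg cells. The other probe of Tox2 was at the floor in naïve and Treg cells, with TFH cells at least 8.44-fold higher than naïve cells (adjusted p = 0.00015) and TFR cells at least 2.82-fold higher than Treg cells (adjusted p = 0.000655). For Maf, the other probe did not call TFR cells lower than TFH cells (-0.71 ± 0.33, adjusted p = 0.196). The other Tox probe had 13082 and 13882 RU in TFH compared to 12677 and 14508 RU in TFR cells, with a TFR minus TFH value of 0.0091 ± 0.097, and it called Treg cells above naïve cells (0.58 ± 0.10, adjusted p = 0.0308). The other Ascl2 probe is listed for another transcript and was well above background in TFH cells alone, with 67 and 55 RU. TFH and naïve cells were not called different by it (25 and 68 RU in naïve cells, adjusted p = 0.424), and no fold could be bounded.

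For each gene, the tested genes with the most alike pattern were those with the smallest root mean square (RMS) difference of gene-centred log2 values over the 8 arrays. The closest to Bcl6 were Arc (RMS 0.195), Smco4, and Vangl1, and to Prdm1 Aebp1 (0.22), Pik3r3, and Utf1. Maf was followed most closely by CB193388 (0.15), a transcript whose probe lies 2348 bases from that of Maf (chromosome 8, 118225329 to 118225388), then by Tnfsf11, which encodes RANKL, and Adssl1. Pou2af1 was followed by Gm32819 (0.247), a long non-coding RNA whose probe lies 40728 bases away (chromosome 9, 51088908 to 51088967), Gm9885, and Cmss1. Irf4 was closest to Efemp2 (0.135), Ralgds, and Chsy1, Batf to S100a1 (0.107), 4732419C18Rik, and Kbtbd6, and Tox to Rab11fip5 (0.157), Evi5, and Cd82. Among the 3 genes closest to Tox2 were Hes5 (0.321) and Vat1l, and Bhlhe40 was closest to Gcnt1 (0.335), C2cd4b, and Ica1. The closest to Ascl2 were Asb2 (0.926), Cebpa, and Fam43a. The RMS grows with the range of a gene, and its median over all other genes tested was 4.01 for Ascl2, whose naïve level was not well above background, compared to 0.933 to 2.33 for the other 9 genes. Among the 10 genes themselves, Batf and Tox (0.463) and Bcl6 and Tox2 (0.471) were most alike.

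Genes that work with or around these factors were read from lists. Of 11 partners and corepressors, TFH cells had 1 called higher and 3 lower relative to naïve cells, and TFR cells 0 higher and 2 lower relative to Treg cells (median differences 0.07 and -0.18). Pou2f2, which encodes the octamer-binding partner OCT2 of POU2AF1, was higher in TFH cells by 1.88 ± 0.10 (551 and 549 RU compared to 2181 and 1891 RU, adjusted p = 0.000321). In TFR cells its value relative to Treg cells was 0.18 ± 0.10 (1456 and 1244 compared to 1544 and 1502 RU), and the difference of both differences was called (-1.71 ± 0.14, adjusted p = 0.00666). Bach2, a repressor of effector differentiation that competes with AP-1, was lower in TFH cells by a difference of -3.52 ± 0.15 and in TFR cells by -1.93 ± 0.15. Jun was lower in both, by -1.62 ± 0.30 and -2.22 ± 0.30.

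Of 10 close family members, 5 were tested, and the others, Bcl6b, Batf2, Batf3, Tox3, and Bhlhe41, did not reach the background criterion in any cell type. Relative to naïve cells, TFH cells had 2 called higher and 1 lower, and relative to Treg cells, TFR cells had 2 higher and 2 lower (medians 0.26 and -0.17). Mafg, a small MAF protein gene, was higher by 3.36 ± 0.12 in TFH cells (940 and 675 RU in naïve, 9630 and 6908 RU in TFH cells) and by 1.64 ± 0.12 in TFR cells. Irf8 was higher by 1.69 ± 0.14 in TFH cells and by 0.85 ± 0.14 in TFR cells. Mafk had -0.60 ± 0.13 and -1.31 ± 0.13, both called lower, and Maff -0.56 ± 0.15 in TFR relative to Treg cells.

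Of 11 genes of upstream signals, TFH cells had 3 called higher and 2 lower relative to naïve cells, and TFR cells 1 higher and 6 lower relative to Treg cells (medians 0.15 and -0.42). Icos, the costimulatory receptor upstream of MAF and BCL6, was higher in both, by 3.39 ± 0.20 and 1.54 ± 0.20. Il2rb was higher in TFH cells by 2.82 ± 0.13. Il6ra, a subunit of the receptor for IL6, which favours Bcl6, was lower in TFR than in Treg cells by a difference of -1.03 ± 0.10, and Il2ra, a subunit of the receptor for IL2, which favours Prdm1, by -0.68 ± 0.12. In TFR cells Il2ra still had 14489 and 20078 RU, compared to 226 and 249 RU in TFH cells. Il21r and Il27ra were lower in TFH than in naïve cells (-0.66 ± 0.09 and -0.58 ± 0.08).

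Of 12 genes known to be lowered by BCL6, TFH cells had 6 called lower and 3 higher relative to naïve cells, and TFR cells 4 of either relative to Treg cells (medians -1.72 and 0.38). Between TFR and TFH cells, 9 of the 12 were called higher in TFR cells and 0 lower, against 11.6% and 10.5% of all genes tested. The median was 1.37, compared to -0.02 for all genes tested. Those lower in both follicular populations were the homing and egress genes S1pr1, Ccr7, and Selplg and Klf2, which controls migration. Klf2 had -4.35 ± 0.22 in TFH and -2.43 ± 0.22 in TFR cells, and S1pr1 -4.44 ± 0.18 and -3.20 ± 0.18. Il7r fell from 41516 and 45404 RU in naïve to 1060 and 2539 RU in TFH cells (-4.73 ± 0.29), but had -0.63 ± 0.29 in TFR relative to Treg cells, which was not called (adjusted p = 0.151). Ccr7 had -4.81 ± 0.20 in TFH and -2.36 ± 0.20 in TFR cells. Rora was higher in TFH cells by 2.65 ± 0.24 and in TFR cells by 1.28 ± 0.24, and Tbx21, which encodes T-bet, was higher in TFR than in Treg cells by 1.85 ± 0.21 (498 and 554 compared to 2043 and 1746 RU). Runx2 was counted as higher in TFH cells, but did not reach the background criterion in either TFH or naïve cells, and it was at least 1.95-fold higher in TFR than in Treg cells.

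**Figure D4:**
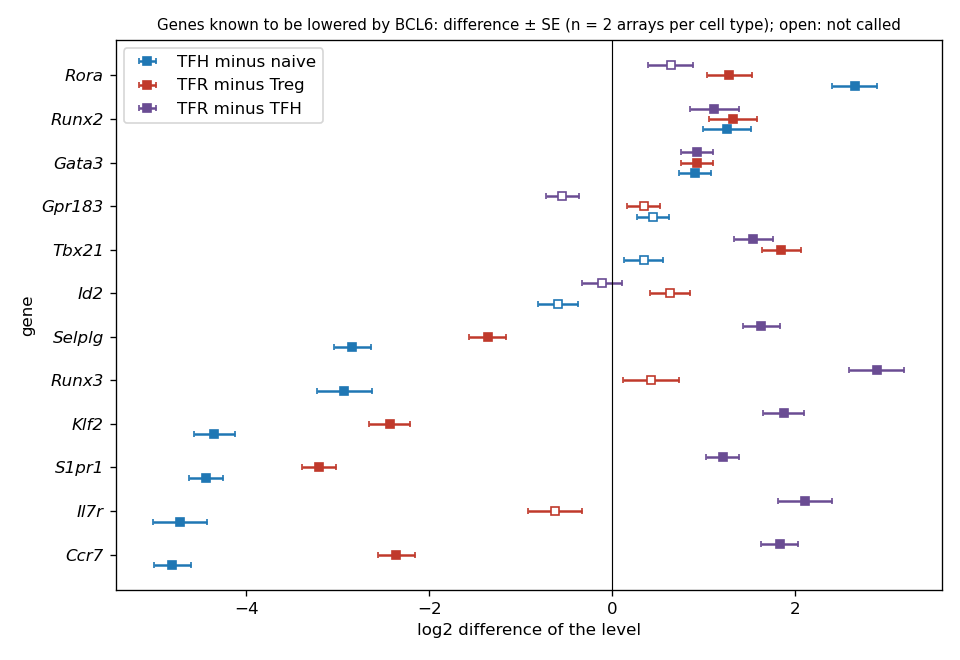
Genes known to be lowered by BCL6 on the vertical axis and their log2 differences ± SE (n = 2 arrays per cell type) on the horizontal axis, between TFH and naïve (blue), TFR and Treg (red), and TFR and TFH cells (violet). Filled squares are called. 9 of the 12 violet values are called and above 0, and none is called below 0, against 11.6% and 10.5% of all genes tested.

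Of 10 TFH effector genes, 9 were called higher in TFH than in naïve cells and 8 in TFR than in Treg cells, and 0 lower in either (medians 4.65 and 2.43). Pdcd1, one of these, served as a gate. Cxcr5, the follicle homing receptor, was higher by 7.16 ± 0.23 in TFH and by 3.30 ± 0.23 in TFR cells. Il21 was at the floor in Treg cells and had 1556 and 2386 RU in TFR cells, at least 36.3-fold higher. Il4 was higher in TFR than in Treg cells by 5.21 ± 0.41. Of 10 effector Treg genes, which include targets of BLIMP-1, TFH cells had 4 called higher and 1 lower relative to naïve cells, and TFR cells 7 higher and 0 lower relative to Treg cells (medians 0.54 and 2.52). Lag3 was higher in both, by 5.12 ± 0.48 and 3.55 ± 0.48, as was Ebi3, a subunit of IL35, by 3.88 ± 0.15 and 2.49 ± 0.15, with its highest levels in TFR cells (30495 and 29799 RU). Il10 was higher in TFR than in Treg cells by 3.54 ± 1.04 (442 and 182 RU in Treg, 2162 and 5002 RU in TFR cells, adjusted p = 0.0498), just within the threshold. The gene counted as lower, Il1rl1, did not reach the background criterion in either TFH or naïve cells.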

How the data were processed

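The 4 sorted pLN populations were profiled on 8 one-color Agilent arrays, 1 per cell type at d12 and d25; cells from Peyer's patches were not analysed here. The authors deposited spot intensities of Agilent Feature Extraction 10.7.3.1 and a table of normalized intensities, made from the geometric mean of a probe's 4 spots by quantile normalization, scaling of the 75th percentile to 1500, and a floor of 20. These steps, including the exclusion of flagged, outlying, and uneven spots, were run here from the spots, of which 86.5% to 89.2% were retained. The log2 values correlated with the authors' table with a Pearson r of 0.999 on each array, but for the brightest 1% of probes the median offset was 0.51 above that table.

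The probe of a gene with the highest mean log2 value stood for the gene, which was tested where at least 1 cell type had both its arrays well above background for this probe (over 50% of its retained spots flagged so by the software). Differences were fitted with limma 3.58.1 in R 4.3.3 (cell type and day, 3 residual degrees of freedom, prior 1.89), after the script had been tested on simulated data. Where a cell type was well above background on neither array, its mean was taken with the lowest signal well above background of each array and the fold was given as a lower bound; log2 values printed for such cases are fitted and no measured size. Probe positions are those of the files (build NCBI37), and upstream sequences are from RefSeq (GRCm38.p6). The 10 genes and the gene lists were chosen with earlier results of these data known. Named from each list were at most the 2 largest called differences in each direction, besides genes of counts explained in the text. Selplg was named as the fourth gene lower in both populations, and Cd22, Spib, Ms4a1, Cd79a, Cd79b, Jchain, Derl3, Mzb1, Tnfrsf13b, and Nkg7 after their values were seen. Alternatives concerned scaling, background correction, spots, filters, floor, probes, slide, day, variance prior, Tukey's test, and single arrays. A few genes of the lists and of the most alike patterns are not reported here. The number of arrays limits the precision.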

Additional observations from a re-analysis of the deposited data

Results flagged for a closer look

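For 5 of the 10 genes, compared to 8.49% of all genes tested, the difference between TFR and Treg cells departed from that between TFH and naïve cells by the test of the difference itself in the limma model (n = 2 arrays per cell type). It was -1.55 for Bcl6, -3.06 for Maf, -1.90 for Tox2, and -6.82 for Ascl2, all smaller steps in the Foxp3+ cells. The value of Ascl2 is fitted against naïve arrays that were not well above background and was -6.43 with the lowest signal well above background in their place. With slide as a block, the calls of Bcl6 (adjusted p = 0.0564) and Prdm1 (adjusted p = 0.0601) were lost. For Prdm1 the difference was 2.08, with a higher level in TFR than in Treg cells and a lower level in TFH than in naïve cells at both days. Without the filter on dim genes, limma lost the calls of Bcl6, Prdm1, Maf, and Tox2 (adjusted p = 0.101, 0.125, 0.0896, and 0.0788). The calls of these genes were also lost without some of the single arrays.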

How the results depend on the processing

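Of 35 called differences of the 10 genes over 5 comparisons, 9 were called under every alternative with a test, among them those of Bcl6 and Batf in TFH and in TFR cells. No call was turned in direction except by the other Ascl2 probe, which was near background (Treg minus naïve -0.25, difference of both differences 0.0011). The difference of both differences of Batf, close to 0, changed sign with scaling alone (0.087), with normexp (0.010), and without the d12 Treg, d12 TFR, d25 naïve, or d25 TFH array (range over all single arrays left out -0.12 to 0.10), as did TFR minus TFH for the other Tox probe (0.0091). For the cell type pairs in which both populations of the other Tox2 probe lay at the floor, no value could be given. The cause of these shifts was not tested.

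The number of the 10 genes called was 9 between TFH and naïve cells and 9 to 10 with 1 array left out. Between TFR and Treg cells it was 9, and 2 by Tukey's test (8 before adjustment over genes). Between TFR and TFH cells it was 7, 4 without the filter on dim genes, 4 with slide as a block, 0 by Tukey's test (5 before adjustment over genes), and 4 to 6 with 1 array left out. Between Treg and naïve cells it was 5, 1 without the filter, 2 with slide as a block, 0 by Tukey's test (5 before adjustment), and 1 to 5 with 1 array left out. For the difference of both differences it was 5, 1 without the filter, 3 when all 8 arrays had to be well above background, which removes Ascl2 and Tox2, 3 with slide as a block, 3 without a day term, and 1 to 4 with 1 array left out.

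Over all genes, 7332 were called between TFH and naïve cells, 2225 by Tukey's test, and 4309 to 6478 with 1 array left out. Between TFR and Treg cells 6249 were called, 3870 without the filter, 894 by Tukey's test, and 2494 to 6731 with 1 array left out. Between TFR and TFH cells 3486 were called, 1649 without the filter, 1349 with slide as a block, 2213 without a day term, 423 by Tukey's test, and 942 to 2915 with 1 array left out. Between Treg and naïve cells 1557 were called, 702 without the filter, 523 with slide as a block, 1000 without a day term, 79 by Tukey's test, and 416 to 1865 with 1 array left out. For the difference of both differences 1339 were called, 418 without the filter, 691 with slide as a block, 807 without a day term, and 292 to 1096 with 1 array left out. The labels carry no replicate numbers, so that arrays could not be paired beyond the day. Arrays of a cell type differ by day, which the model holds as a term so that cell types are compared within days. Signal over background limited Ascl2 in naïve cells and Tox2 in naïve and Treg cells.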
